A study of Mus musculus with 6 samples.

Results

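The 5 genes *Capn2*, *Magi2*, *Pgbd5*, *Sfi1* and *Acss3* are the protein-coding genes nearest to the strongest ChIRP-seq peaks of the embryonic mouse limb that had no overlapping peak in a glial control. They were selected by peak score and by overlap, in the mouse genome build mm9 with the GENCODE M1 annotation, from 22238 annotated protein-coding genes. Of the 2880 limb peaks, 2769 overlapped no glial peak, and the 5 highest of these are called the leading peaks here. ChIRP uses biotin-tagged DNA probes complementary to an RNA to recover the chromatin that it contacts, and the RNA here was *LncRNA-HIT*, named Hotchon in the sample labels, a nuclear noncoding RNA of the HoxA cluster. The same 25 probes, each 20 bases long, were used in 2 pools, 13 odd and 12 even, and each tissue had 1 library per pool and 1 input library, 6 libraries in all.

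The limb libraries came from the distal part of Swiss Webster limb buds at embryonic day (E) 11, with about 2000 limb buds pooled for an assay. The control was a murine glial cell line described as not expressing *LncRNA-HIT*, whose strain was also given as Swiss Webster. Its origin was given as E 15.5 in the protocol and as E 11.0 in the sample characteristics, and this conflict could not be settled. The odd and even tracks of a tissue were merged by the authors before peaks were called against input, so each tissue is represented by 1 list of peaks. No value below has a replicate error, the read depth of each peak is unknown, and no difference between limb and glial could be tested. Peak strength is given as −log10(p), the deposited MACS score divided by 10.

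The 5 genes belong to unrelated families. *Capn2* encodes the catalytic subunit of calpain-2, a calcium-dependent cysteine protease that cuts cytoskeletal and adhesion proteins. *Magi2* encodes a membrane-associated scaffold with PDZ and WW domains that is found at synapses and at epithelial junctions. *Pgbd5* is derived from a piggyBac DNA transposase and is expressed mainly in the nervous system. *Sfi1* encodes a centrosomal protein with many centrin-binding repeats, and *Acss3* encodes a mitochondrial acyl-CoA synthetase for short-chain fatty acids.

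Sequence from the *Capn2*, *Pgbd5* and *Acss3* leading peaks is shown first, the former 2 because they held tandem repeats of which parts were identical to parts of the probes, and *Acss3* because it held neither. The *Sfi1* peak, with 1 short stretch identical to a probe, is described by its values. Each window below is read 5′ to 3′ from the plus strand of mm9. Capitals mark bases that lie in a stretch of at least 10 bases identical to a probe on either strand. In *Capn2* and *Pgbd5* the window with the most such bases is shown, and for *Acss3*, which had none, the middle of the peak.
*Capn2* peak, chr1:184431051-184431350: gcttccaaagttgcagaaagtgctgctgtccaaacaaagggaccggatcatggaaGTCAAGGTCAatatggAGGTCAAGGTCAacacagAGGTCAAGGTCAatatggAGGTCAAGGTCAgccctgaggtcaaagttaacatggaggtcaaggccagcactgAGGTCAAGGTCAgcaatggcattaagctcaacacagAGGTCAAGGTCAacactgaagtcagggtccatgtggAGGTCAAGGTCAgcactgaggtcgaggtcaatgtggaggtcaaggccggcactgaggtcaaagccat
*Pgbd5* peak, chr8:126995135-126995434: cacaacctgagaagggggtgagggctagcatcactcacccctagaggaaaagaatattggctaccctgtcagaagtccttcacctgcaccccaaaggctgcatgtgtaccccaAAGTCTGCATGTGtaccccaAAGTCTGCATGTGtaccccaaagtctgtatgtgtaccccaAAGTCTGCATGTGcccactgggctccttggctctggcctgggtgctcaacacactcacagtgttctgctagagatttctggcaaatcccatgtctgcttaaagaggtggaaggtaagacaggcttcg
*Acss3* peak, chr10:106397912-106398211: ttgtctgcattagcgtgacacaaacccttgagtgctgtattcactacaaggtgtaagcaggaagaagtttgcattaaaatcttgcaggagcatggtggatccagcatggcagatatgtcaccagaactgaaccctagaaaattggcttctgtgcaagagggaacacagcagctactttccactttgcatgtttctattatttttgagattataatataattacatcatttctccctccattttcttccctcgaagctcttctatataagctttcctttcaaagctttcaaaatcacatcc

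The probes that matched the *Capn2* and *Pgbd5* windows are given below, with the longest part found in the named peak in capitals.
Probe 7, odd set, *Capn2*: caAGGTCAAGGTttaaggcc
Probe 8, even set, *Capn2*: GTCAAGGTCAcaaattgtct
Probe 4, even set, *Pgbd5*: CACATGCAGACTTaagagca

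The leading peaks of *Capn2*, *Magi2* and *Pgbd5* each had a −log10(p) of 310. This is the highest value of the limb list and was reached by 9 limb peaks, of which the other 6 overlapped a glial peak, so the 3 cannot be ranked against each other. The *Sfi1* peak had a −log10(p) of 252, rank 12 in the limb list, and the *Acss3* peak had 206, rank 17. Just outside the selection, the next limb peak without a glial overlap had 202 and lies in *Ctnna2*, which encodes a neuronal alpha-catenin. It was followed by peaks of 184 in *BC049352*, 172 in *Fcho2*, 171 in *4930455F23Rik* and 158 in *Sag*. The difference between *Acss3* and *Ctnna2* is small beside the fall from 252 at *Sfi1* to 206 at *Acss3* within the selection. The 9 tied peaks share a deposited score of exactly 3100.0, whereas the scores of *Sfi1* and *Acss3*, 2524.33 and 2062.97, are not round. The highest value in the glial list was 317, reached by 1 peak. Whether 310 is an upper limit of the calculation in the limb list was not tested, so distances from it are not interpreted. These scores chose the genes and are given as a description. For comparison, the median of all limb peaks was 34.9, and 96.1% of limb peaks overlapped no glial peak by 1 bp or more.

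**Figure D1:**
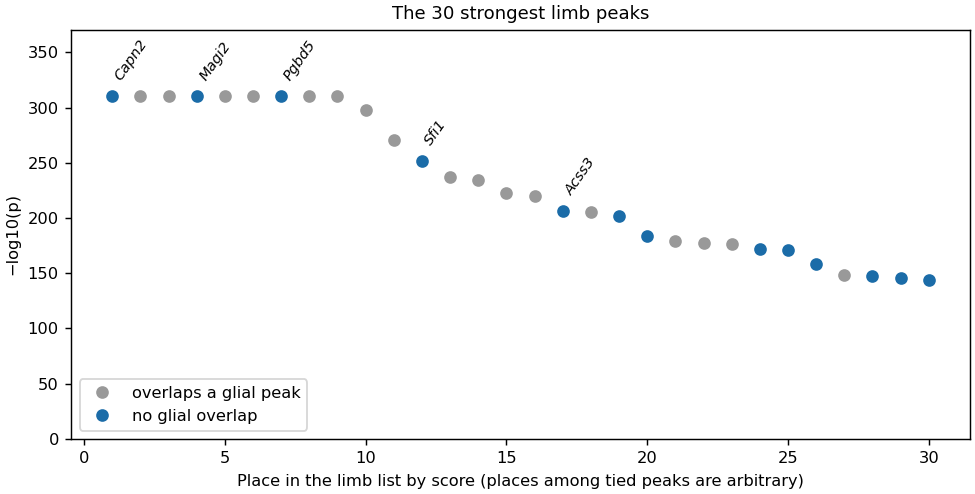
The 30 strongest limb peaks in order of −log10(p), with peaks that overlapped a glial peak in grey and the others in blue. *Capn2*, *Magi2* and *Pgbd5* stand among the 9 peaks tied at 310, *Sfi1* at 252 and *Acss3* at 206, directly above the peaks of 205, which overlapped a glial peak, and 202.

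The leading peaks were wide. The *Capn2* peak measured 1005 bp, and 1.35% of limb peaks were at least as wide. The *Magi2* peak measured 858 bp (2.29%), the *Pgbd5* peak 757 bp (3.44%) and the *Acss3* peak 883 bp (2.22%). The *Sfi1* peak measured 2631 bp, which 0.139% of limb peaks reached, and it was the widest limb peak without a glial overlap. The median width of all limb peaks was 408.0 bp. Widths and scores come from the same peak calls, so the widths are not independent of the selection.

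None of the 5 leading peaks touched an annotated exon, and 4 of them lay in an intron, where 37.8% of all limb peaks lie. *Capn2* is read from the minus strand of chromosome 1, from 184397391 to 184447655, and its leading peak, chr1:184430699-184431703, lay in intron 2, which is 19.3 kb long, 7697 bp from the nearest exon and 16 kb from the gene start. *Magi2* spans 1480 kb of the plus strand of chromosome 5, from 18732864 to 20210616, and its leading peak, chr5:19767146-19768003, lay in intron 5, an intron of 130 kb, 1030 kb from the start of *Magi2* and 32876 bp from an exon. Among protein-coding genes, the start nearest to this peak was that of *Phtf2*, at 620 kb. The *Acss3* peak, chr10:106397621-106398503, lay in intron 11, 162 kb from the start of this minus-strand gene, which extends from 106373220 to 106560724 on chromosome 10. The *Sfi1* peak, chr11:3081023-3083653, lay in intron 4, 9.81 kb from the gene start and 1512 bp from an exon, in a minus-strand gene on chromosome 11 from 3031853 to 3093466. The *Pgbd5* peak, chr8:126994796-126995552, was intergenic, 31.2 kb upstream of this minus-strand gene, which lies on chromosome 8 from 126892949 to 126963558. The genes were named as the nearest to these peaks, so the nearest gene by its body was the named one in 5 of 5 cases by construction. By gene start, over all annotated genes, it was the named one in 4 of 5.

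Taking every peak within 100 kb of a gene body, the limb list held 40 peaks around the 5 genes and the glial list held 35. A limb peak lies within 100 kb of 24.1% of all protein-coding genes, and a glial peak within 100 kb of 21.0%. The selection guaranteed 1 limb peak per gene. *Sfi1* accounted for 30 of the 40 limb peaks and 31 of the 35 glial peaks, and the other 4 genes together had 10 limb and 4 glial peaks. *Capn2*, *Pgbd5* and *Acss3* had limb peaks and no glial peak in this window, as did 17.8% of protein-coding genes. That share includes genes without any limb peak. Of the 5353 protein-coding genes with a limb peak within 100 kb, 3950 had no glial peak, so most genes with a limb peak share this trait.

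**Figure D2:**
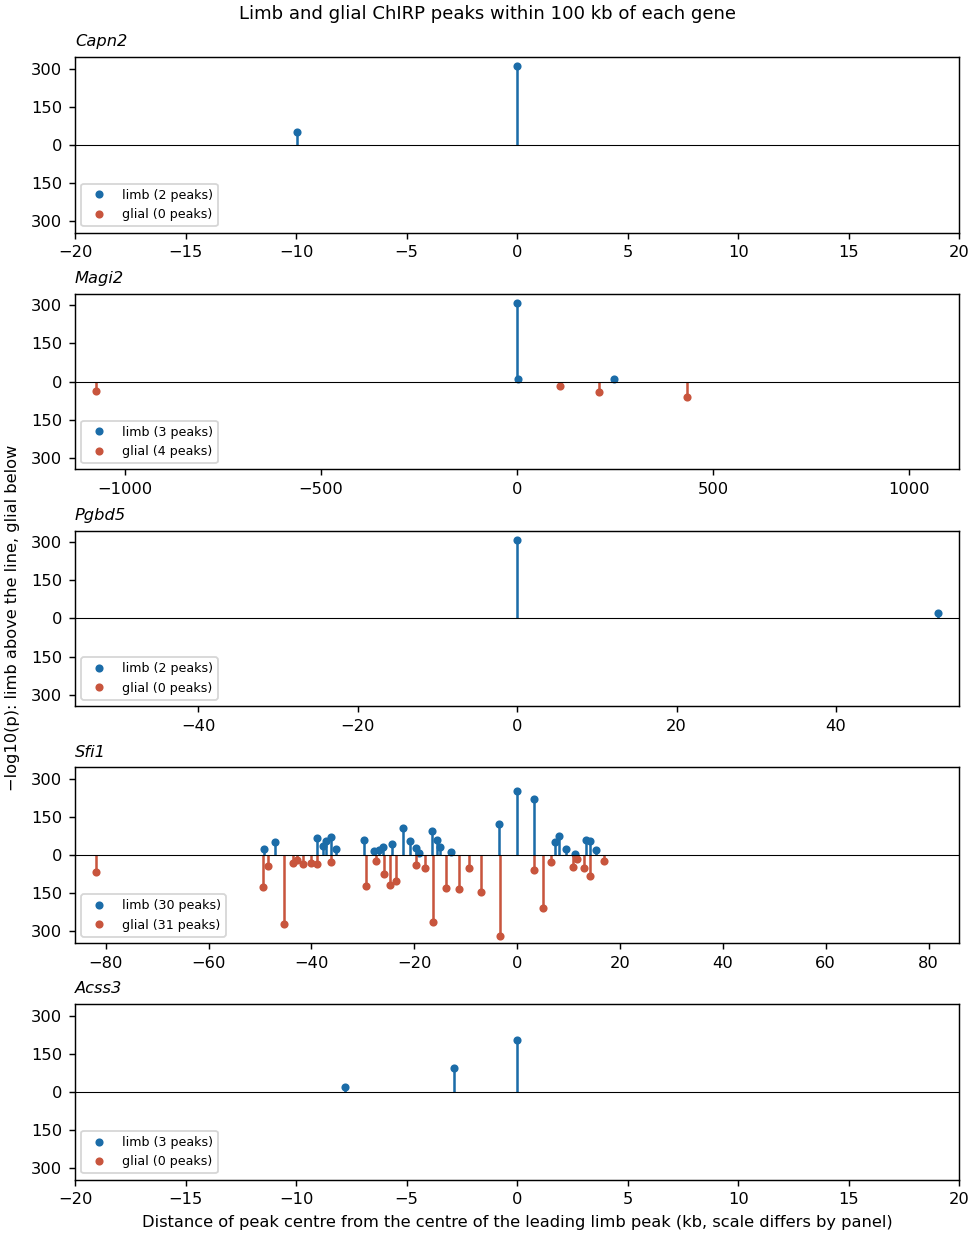
Every limb peak (blue, above the line) and glial peak (red, below the line) within 100 kb of each gene body, placed by the distance of its centre from the centre of the leading limb peak in kb along the plus strand, with height equal to −log10(p). *Capn2*, *Pgbd5* and *Acss3* have limb peaks alone, *Magi2* has 3 limb and 4 glial peaks that do not overlap, and *Sfi1* has 30 limb and 31 glial peaks over the same stretch.

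At *Capn2* there were 2 limb peaks. Besides the leading peak, a peak of 408 bp at chr1:184421021-184421428 had a −log10(p) of 52.3, rank 920, and lay over an exon of *Capn2* 9.27 kb from the leading peak. None of its 24-base words was found more than once in the genome, and it had no stretch of 10 bases identical to a probe. Neither peak lay near a glial peak, the nearest one being 1390 kb from the leading peak.

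At *Magi2* there were 3 limb peaks and 4 glial peaks, and no limb peak overlapped a glial one. A limb peak of 380 bp with a −log10(p) of 9.05 lay 593 bp beyond the leading peak, and a limb peak of 379 bp with 8.55 lay 247 kb beyond it, at chr5:20014972-20015350. They ranked 2768 and 2849 of the 2880 limb peaks, so the leading peak stood alone as a strong limb peak in this gene. The glial peaks had −log10(p) values of 36.2, 18.4, 42.6 and 61.9. The first of these is intergenic, 38.4 kb upstream of *Magi2* and nearest to *4921504A21Rik*, and the other 3 lie in introns of *Magi2*. The glial peak of 18.4, at chr5:19877172-19877553, was the nearest to the leading peak, at 109 kb. Thus *Magi2* carried glial peaks within its body although its leading limb peak had no glial counterpart.

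At *Pgbd5* there were 2 limb peaks, and neither lay within the gene. The second, of 402 bp at chr8:127047775-127048176, had a −log10(p) of 22.7, rank 1909, and lay in an intron of *Cog2*, which encodes a subunit of the conserved oligomeric Golgi complex. The nearest glial peak was 1660 kb from the leading peak.

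At *Acss3* there were 3 limb peaks in the same part of the gene, with −log10(p) values of 18.3, 92.8 and 206. The peak of 92.8, at chr10:106394672-106395703, was 1032 bp wide, ranked 121 and lay 1.92 kb from the leading peak. The peak of 18.3 covered 381 bp at chr10:106390098-106390478. Both peaks were intronic, and none of their 24-base words was repeated in the genome. The peak of 92.8 held 1 stretch of 11 bases identical to an odd probe, and the peak of 18.3 held no stretch of 10 bases. The nearest glial peak was 658 kb from the leading peak. *Acss3* was 1 of 352 protein-coding genes (1.58%) with at least 3 limb peaks within 100 kb, as was *Magi2*, and *Capn2* and *Pgbd5* were among the 4.98% with at least 2. These shares are over all protein-coding genes, whereas the selection guaranteed each named gene a limb peak. Of the 5353 genes with a limb peak within 100 kb, 1108 had at least 2 and 352 at least 3.

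*Sfi1* differed from the other 4 genes in the number of its peaks. With 30 limb peaks it stood among 3 protein-coding genes (0.0135%) with as many, the other 2 being its neighbors *Drg1* and *Eif4enif1*, which were counted over the same peaks. In the window around the gene the density was 115 limb and 118 glial peaks per Mb, against 1.06 and 1.07 per Mb over the genome. Of the limb peaks, 27 reached into the gene body, and limb peaks covered 34.9% of it. Of the glial peaks, 26 reached into it and covered 42.5%. The −log10(p) of the limb peaks ran from 6.22 to 252 with a median of 51.1, and that of the glial peaks from 14.3 to 317 with a median of 51.5. The 2 lists were close in number and median score at this gene, and glial peaks covered more of it.

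Of the 30 limb peaks at *Sfi1*, 18 overlapped a glial peak, and 16 of the 31 glial peaks overlapped a limb peak. The leading peak was 1 of the 12 that did not. It lay between limb peaks of 2628 bp and 3079 bp, with −log10(p) values of 123 and 220, at distances of 0.872 kb and 0.517 kb, and both of these overlapped a glial peak. The strongest peak of the whole glial list, at 317, lay 1019 bp from the leading peak, over an exon of *Sfi1* at chr11:3077953-3080003. Over all limb peaks, 93.2% had no glial peak within 10 kb. Of the other 4 leading peaks, 4 of 4 had none within 10 kb and none within 100 kb, against 77.2% of limb peaks at 100 kb. Both shares are over all 2880 limb peaks, including the 111 that overlap a glial peak, whereas the leading peaks were selected to have no overlap, so this comparison in part restates the selection. The label of a peak without a glial overlap therefore rests at *Sfi1* on a gap of about 1 kb inside a run of glial peaks.

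**Figure D3:**
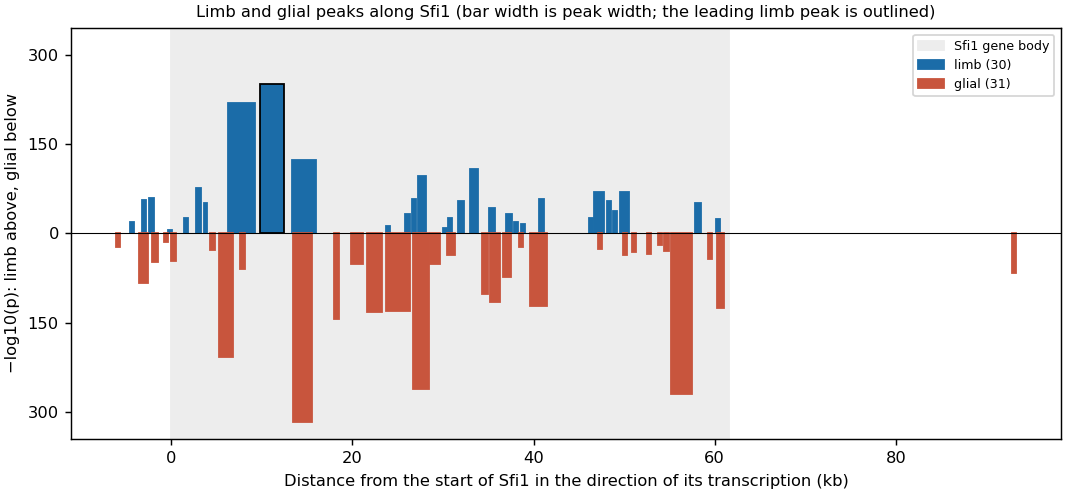
Limb peaks (blue, above the line) and glial peaks (red, below the line) by distance from the start of *Sfi1* in kb along its direction of transcription, with bar width equal to peak width and height equal to −log10(p). The leading limb peak (outlined, 252) lies between wide limb peaks of 220 and 123, and peaks of both lists fill the gene body (grey).

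Peaks at *Sfi1* fell on 13 exon-overlapping and 17 intronic positions in the limb list and on 19 exon-overlapping, 11 intronic and 1 intergenic positions in the glial list. Over all peaks, 10.7% of limb and 8.70% of glial peaks overlapped an exon, and 37.8% and 36.5% were intronic. The neighboring genes named by these peaks were *Drg1*, which encodes a developmentally regulated GTP-binding protein and overlaps the start of *Sfi1*, the annotated genes *Gm11399* and *Gm12735*, and the pseudogenes *Fau-ps2* and *Pisd-ps1*. The glial peak nearest to *Pisd-ps1* lay 80.3 kb from the leading peak. The leading peak of *Sfi1* lies 81.0 kb from the run of 3000000 unknown bases with which chromosome 11 begins in mm9, whereas the other 4 leading peaks lie 475 kb or more from any run of unknown bases. Over the 30 limb peaks at *Sfi1*, a median of 5.97% of 24-base words was repeated in the genome, and 13 of them had 10% or more. Over the 31 glial peaks the median was 15%, and 22 had 10% or more. Among all peaks, 26.1% of limb and 30.4% of glial peaks had 10% or more. The part of repeated sequence in the peaks at *Sfi1* was not tested.

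The leading peaks differed in repeated sequence. A 24-base word was counted as repeated when it occurred more than once in mm9 on either strand. In the *Magi2* peak 449 of 835 words (53.8%) were repeated, which 3.40% of limb peaks reached. The *Pgbd5* peak had 17.0%, the *Sfi1* peak 15.5%, the *Acss3* peak 3.72% and the *Capn2* peak 1.02%, and the median over limb peaks was 0.988%. *Capn2* and *Acss3* were thus near the middle of the list. Of the 5 leading peaks, 3 had 10% or more, against 26.1% of all limb peaks. Over the 139 limb peaks of 700 bp or more, the median was 6.81% and the 75th percentile 25.8%. The *Pgbd5* and *Sfi1* peaks lay between these values, so their shares were not unusual among wide peaks. The *Magi2* peak lay above both values, and the *Capn2* and *Acss3* peaks lay below both.

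The repeated words were of different kinds. All occurrences of the words of the *Capn2* and *Pgbd5* peaks lay within 100 kb of the peak itself, so these repeats belong to the locus. The words of the *Magi2* and *Sfi1* peaks occurred on 21 chromosomes, and the most frequent of them had 1203992 and 55615 copies in the genome. The words of the *Acss3* peak occurred on 20 chromosomes, with 41.8% of their occurrences within 100 kb of the peak, and the highest copy number was 148. At 36 bases, 33.9% of words remained repeated in the *Magi2* peak, 12% in the *Pgbd5* peak, 7.20% in the *Sfi1* peak, 0.708% in the *Acss3* peak and 0 in the *Capn2* peak. The authors kept uniquely mapped reads, so a read that lay wholly in repeated sequence would not have been counted, but the read length is not given in the sources used here.

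Repetition within a peak was measured as the percentage of 12-base words that occur more than once in the same peak on the same strand, adjacent or not. It was 57.3% in the *Magi2* peak, 21.6% in the *Pgbd5* peak, 10.1% in the *Capn2* peak, 3.47% in the *Sfi1* peak and 0 in the *Acss3* peak. These values were reached by 0.799%, 3.65%, 7.67%, 14.9% and 100% of limb peaks, respectively. Among the 5, the percentage was highest in the *Magi2*, *Pgbd5* and *Capn2* peaks. The other 6 limb peaks at 310 are not shown on this measure, so no relation to the score is drawn. At least 10% was found in 7.71% of limb and 7.19% of glial peaks. Wide peaks held more of it: over the 139 limb peaks of 700 bp or more, the 75th percentile was 6.40% and the 95th 74.3%. In the *Magi2* peak the bases matched best at a shift of 10 bp, with 57.3% identical. The *Pgbd5* peak held 2 arrays. The word GTGTCCAGGGCCACTGATTGTGTCCAGGGC, of 30 bases, occurred 5 times in overlapping copies and was found in no other peak of either list. It was picked from this peak as its longest word found at least 5 times. All 24-base words of the peak occurred only within 100 kb of it, so absence from distant peaks was fixed in advance. The word AAGTCTGCATGTG, of 13 bases and identical to a part of probe 4, occurred 3 times with starts 20 and 40 bp apart, and was found in 3 limb peaks (0.104%) and 1 glial peak (0.0343%) in all.

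**Figure D4:**
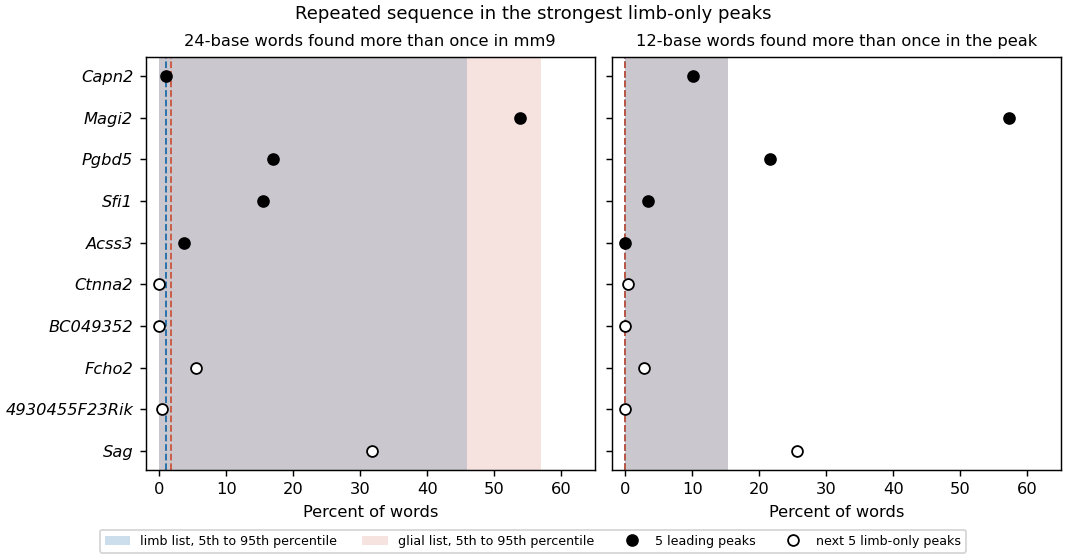
Percentage of 24-base words found more than once in mm9 (left) and of 12-base words found more than once in the same peak (right) for the 5 leading peaks (filled) and the next 5 limb peaks without a glial overlap (open), with the 5th to 95th percentile (shading) and median (dashed) of the limb and glial lists. *Magi2* lies above the limb range in both panels, *Pgbd5* in the right panel alone, and *Capn2* and *Acss3* lie low in the left panel. The range is over limb peaks of all widths. Over limb peaks of 700 bp or more, the 95th percentile was 90.3% (left) and 74.3% (right), above all 5 leading peaks.

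Of the next 5 limb peaks without a glial overlap, 4 had less than 10% on both measures. The *Ctnna2* peak had 0 repeated 24-base words and 0.385% of 12-base words repeated in the peak, the *BC049352* peak had 0 and 0, the *Fcho2* peak 5.52% and 2.77%, and the *4930455F23Rik* peak 0.415% and 0. The *Sag* peak, which overlaps an exon of the gene for retinal arrestin, had 31.7% and 25.6%.

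The *Capn2* peak was set apart by a short motif. The word AGGTCA, known as a half-site of nuclear receptors, occurred 18 times in it on either strand, the most of any limb peak, and the most in a glial peak was 8. It was found at least once in 25.1% of limb and 23.6% of glial peaks, and in 48.9% of the 139 limb peaks of 700 bp or more. It occurred once in the *Sfi1* peak and was not found in the *Magi2*, *Pgbd5* and *Acss3* peaks. The direct repeat AGGTCAAGGTCA, in which 2 copies of this word adjoin, occurred 6 times in the *Capn2* peak and in 16 limb peaks (0.556%) and 3 glial peaks (0.103%) in all. Probes 7 and 8 share the word CAAGGTCA, which lies within this repeat. Each of the 6 copies held a stretch of 10 bases identical to probe 7 and a stretch of 10 identical to probe 8, which overlap, and the seventh site held the stretch of probe 8 alone. The 7 sites followed each other at distances of 18 to 54 bp over 190 bp. The words were searched on both strands and were picked after the sequences had been read, and a match says nothing about binding of a factor.

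Stretches of at least 10 bases identical to a probe were counted over all peaks. The *Capn2* peak had 13, of which 6 matched an odd and 7 an even probe. The *Magi2* peak had 9, all of them to the odd probe 5 and the longest 11 bases, beginning 10 to 194 bp apart over 313 bp. The *Pgbd5* peak had 3, all of 13 bases and all to the even probe 4. The *Sfi1* peak had 1, to probe 5, and the *Acss3* peak had 0. At least 1 such stretch was found in 34.9% of limb peaks, 24.4% of glial peaks and 43.2% of 1 kb windows of the genome, against 4 of the 5 leading peaks, which are wider than most limb peaks. At least 3 stretches were found in 2.36% of limb peaks, 0.959% of glial peaks and 2.43% of genome windows.

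The counts of *Capn2* and *Magi2* were rare. At least 4 stretches were found in 2 of the 5 leading peaks, these ones, and in 0.694% of limb peaks, 0.445% of glial peaks and 0.408% of 1 kb genome windows. Over the 139 limb peaks of 700 bp or more, the 95th percentile was 4 stretches, so this count is less rare among wide peaks. At least 13 stretches were found in 3 of 2880 limb peaks (0.104%), in 0.0343% of glial peaks and in 0.00422% of 1 kb genome windows. The other 2 limb peaks were the peak over the *LncRNA-HIT* locus itself, chr6:52206123-52207602, with 30 stretches, and a peak of 104 at chr6:88479372-88480078 with 7 odd and 6 even stretches. The peak over the *LncRNA-HIT* locus overlapped a glial peak, although the glial cells were described as not expressing this RNA, and the peak of 104 did not. At least 9 stretches were found in 4 limb peaks (0.139%), 0.0685% of glial peaks and 0.00762% of genome windows. The windows differ in width from the peaks, 1000 bp being close to the *Capn2* peak and longer than most limb peaks.

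**Figure D5:**
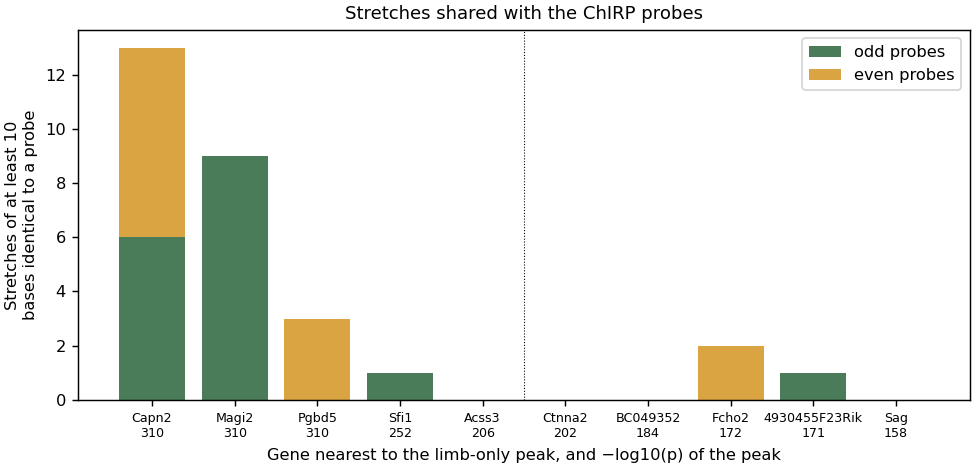
Number of stretches of at least 10 bases identical to a probe, split into odd (green) and even (yellow) probes, in the 5 leading peaks (left of the dotted line) and the next 5 limb peaks without a glial overlap, with the −log10(p) of each peak under its gene. *Capn2* has 6 odd and 7 even stretches, *Magi2* 9 odd, *Pgbd5* 3 even, *Sfi1* 1 odd and *Acss3* 0.

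Because the merged track was the minimum over both probe pools, a peak in the deposited lists needs signal in both. A stretch of 10 bases was found for both pools in the *Capn2* peak and in none of the other 4 leading peaks, and in 4.65% of limb peaks, 2.77% of glial peaks, 12.2% of limb peaks of 700 bp or more and 6.48% of genome windows. In the *Magi2* peak the longest match to an even probe was 8 bases of probe 6, found at 13 places over 315 bp. A match of 8 bases to an even probe occurs in 87.3% of limb peaks, so its presence is common. In the *Pgbd5* peak the longest match to an odd probe was 8 bases, a length reached by 89.0% of limb peaks, whereas the 13 bases of the even probe 4 were reached by 1.04%. The odd and even tracks were not analysed here, so whether both pools gave signal at these repeats was not tested.

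By the looser measure of at least 15 of 20 bases identical to a probe, adjacent or not, 3 of 5 leading peaks matched, against 18.0% of limb and 12.4% of glial peaks. The *Capn2* peak matched probes 8 and 12 at 15 bases, the *Sfi1* peak matched probes 1, 2 and 13 at 15 bases, and the *Pgbd5* peak matched probe 4 at 16 bases, which 3.89% of limb peaks reached. The *Magi2* peak reached 13 bases and the *Acss3* peak 14. The *Sfi1* peak is the widest of the 5 and was therefore open to more matches. The contribution of direct probe pairing with DNA to these peaks was not tested.

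The families of the 5 genes were examined for limb peaks within 100 kb. Of 30 listed genes 29 were in the annotation, and 16 had a limb peak, 5 of them the selected genes. Among the 24 others, 11 had a limb peak and 9 had a glial peak, and 2 had a limb peak at the p-value of 5.9e-57 that the study used as its threshold. Over all protein-coding genes, 24.1% had a limb peak and 7.55% had one at this threshold. The calpains gave 7 of the 11, and some of these are neighbors. *Capn8*, a calpain of the gastric mucosa, lies 63.4 kb from the *Capn2* leading peak and was counted through it, and *Capn9* was counted through the peak of 22.7 in *Cog2*, so the counts are not independent of the selected loci. *Capn1*, the catalytic subunit of calpain-1, had a peak of 53.7 at 86.0 kb, *Capn7* had 43.8 at 3.35 kb, *Capn5* 17.0, *Capn10* 16.7 and *Capn12* 13.9. *Pgbd1*, the other piggyBac-derived gene listed, had a peak of 86.7, rank 175, at 79.4 kb. *Magi3* had a peak of 51.0, *Poc5*, a centrin-binding centriole gene, had 42.3, and *Acss2*, which makes acetyl-CoA outside mitochondria, had 39.9. The other 13 annotated genes, among them the 4 centrin genes, *Magi1* and *Acss1*, had no limb peak within 100 kb.

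On the sequence measures, which the selection did not use, *Acss3* was the 1 gene of the 5 whose leading peak had less than 10% of repeated words, no tandem repetition and no stretch of 10 bases identical to a probe, although the limb peak of 92.8 beside it had 1 such stretch. *Capn2* had fewer repeated words but an array of probe-identical sites, and *Magi2* and *Pgbd5* had arrays of which the first holds sequence found throughout the genome. Whether any of the 5 peaks reflects contact of *LncRNA-HIT* with the chromatin of the gene was not tested here. The paper lists primers for *Acss3* among those used to measure expression of peak-associated genes after knockdown of *LncRNA-HIT*. It lists none for *Capn2*, *Magi2*, *Pgbd5* or *Sfi1*. The outcome for *Acss3* is not given in the text used here.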

How the data were processed

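ChIRP-seq with odd and even *LncRNA-HIT* probe pools was analysed from 1 limb and 1 glial peak list. Reads had been mapped by the authors with bowtie 0.12.9 to mm9, unique matches alone being kept, and scaled to the total of each library. The minimum over both pools was then taken, and peaks were called against input by MACS, whose version is not given in the sources used here. The deposited score of each peak is the negative log10 of its MACS p-value times 10, and it was divided by 10. The deposited probe sequences were also used. The sequence of the *Magi2* peak is not reported here.

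Peaks were compared by overlap of at least 1 bp and assigned to GENCODE M1 gene bodies within 100 kb. Words of 24 bases were counted on both strands of mm9, and stretches of at least 10 bases identical to a probe were counted in each peak and in 1 kb windows. Genes named were the 5 genes, genes holding or nearest to a peak within 100 kb of them, genes at the next 5 limb peaks without a glial overlap, and family members with a limb peak. *Phtf2*, *Eif4enif1* and the family genes without a limb peak were added after their values were seen. So were the measures of repetition within a peak, stretches and short words. The genes and lists were chosen with earlier results of these data known. The alternatives were other distances, thresholds, word lengths and match lengths. The routines recovered the planted answers in 8 of 8 tests on simulated data. Python 3.11.15, numpy 2.4.6, pandas 2.3.3, numba 0.67.0, pysam 0.24.0 and matplotlib 3.10.9 were used.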

Additional observations from a re-analysis of the deposited data

How the results depend on the processing

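The 40 limb and 35 glial peaks within 100 kb of the 5 genes numbered 38 and 33 at 25 kb, 40 and 35 at 200 kb, and 34 and 32 when distance was taken from the gene start. At the study threshold 16 limb and 16 glial peaks were left. Without *Sfi1*, an alternative chosen after seeing the data, 10 limb and 4 glial peaks were left. The 5 leading peaks had no glial peak within 1 kb in 5 of 5 cases and within 10 kb in 4, *Sfi1* being the exception. Peaks with 10% or more repeated words numbered 3, or 2 with words of 36 bases (*Magi2* and *Pgbd5*) and 1 with words found more than 10 times (*Magi2*). Probe-like peaks numbered 3 at 15 of 20 bases, 4 at 14, 1 at 16 and 1 with a run of 12 identical bases (*Pgbd5* in both). Matches to both pools, found in the *Capn2* peak at 10 bases, were found in 2 peaks at 9 bases and 0 at 11, and at least 3 stretches in 3 peaks at 10 bases, 4 at 9 and 2 at 11 (lengths chosen after seeing the data). Family genes with a limb peak numbered 16 at 100 kb, 6 at 25 kb and 7 at the study threshold. Of 50 further values for single genes under these alternatives, 20 moved. A count was called moved when it changed beyond a fixed ratio or fell to 0. A percentage was called moved when it left a binomial interval that treats overlapping words as independent. Every percentage of repeated words for a single leading peak moved. Among the counts, *Pgbd5* had 0 limb peaks within 25 kb, and *Magi2* and *Acss3* had 0 limb peaks within 100 kb of their starts. The share of masked repeats was not run, since the reference sequence is not masked. No paired analysis was possible because the peak lists used here were called on the merged odd and even tracks of each tissue and hold no value per library. The tracks of the separate libraries were not analysed here. Without replicates or read depth, no value has an error, and glial signal below the calling limit was not analysed here.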
